A study of Mus musculus with 11 samples.

Results

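The core genes of the circadian clock were examined in the RNA sequencing of mouse hearts after experimental myocardial infarction (MI). The set holds 10 of the 55421 genes of the count table, chosen by name: Arntl (also called Bmal1), Clock, Per1, Per2, Per3, Cry1, Cry2, Nr1d1, Nr1d2 and Dbp. All 10 had a row in the table, and all 10 passed the filter on low counts in each comparison. Heart RNA came from 11 female C57BL/6J mice aged 8 weeks. In 8 mice the left anterior descending artery was permanently ligated. Of these, 4 carried osmotic minipumps that released GI254023X, a hydroxamate that inhibits ADAM10, at 100 mg/kg dissolved in DMSO (A10i). In 4 more the pumps held DMSO without the drug (DMSO). A sham operation was done in 3 mice, which are also labelled with DMSO treatment (Sham), so solvent was common to all groups. All mice were wild-type. Tissue of the ligated mice is labelled as infarct border zone and was taken 3 days after surgery, while that of Sham mice is labelled as healthy. The comparison asks whether the state of the clock differed between these hearts. Mice were housed in a light-dark cycle and killed under anesthesia after echocardiography. The hour at which each heart was taken is not given in the sources used here, so hour of sampling cannot be told apart from infarction, from the inhibitor, or from the differences among infarcted mice.

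The clock is a feedback loop of transcription that runs in almost every cell, the cardiomyocyte included. A dimer of ARNTL and CLOCK binds E-box sequences and drives the Per, Cry and Nr1d genes and Dbp, the PER and CRY proteins then repress that dimer, and NR1D1 and NR1D2 (REV-ERB alpha and beta) repress Arntl. Transcripts of Arntl therefore peak nearly opposite to those of Nr1d1 and Dbp in the day, and the heart clock is known to time metabolism and electrical activity. For this reason the order of Arntl against Dbp in a single sample depends on the hour at which it is taken.

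Total counts on genes lay between 21702623 and 29511768 per mouse. They were 25538009 to 29511768 in Sham, 22651265 to 29004048 in DMSO and 21702623 to 25695213 in A10i mice. These ranges overlapped, and that of A10i mice was the lowest. Cell type markers differed between the tissues. The summed level of 8 cardiomyocyte genes was 90008 to 90464 CPM (counts scaled to the normalised library total) in Sham, 40292 to 60059 in DMSO and 51581 to 70687 in A10i mice, and none of the 8 was at 0. The sum of 6 neutrophil genes was 1.04 to 2.09 CPM in Sham, 61.3 to 115 in DMSO and 11.9 to 40.5 in A10i mice. In Sham mice up to 2 of these 6 were at 0. The sum of 6 fibroblast genes was 895 to 982, 1543 to 5019 and 3820 to 6873 CPM in the same order, with none at 0. The macrophage and monocyte genes summed to 239 to 258 CPM in Sham mice, 413 to 740 in DMSO and 525 to 1075 in A10i mice. The smooth muscle and pericyte genes summed to 934 to 999, 588 to 732 and 770 to 817 CPM in that order, and in both lists none was at 0. The 5 T and B cell genes summed to at most 1.74 CPM in any mouse. The endothelial genes summed to 913 to 960, 783 to 908 and 895 to 1003 CPM in Sham, DMSO and A10i mice. The red blood cell genes summed to 594 to 1286, 234 to 3717 and 1045 to 5015 CPM in the same order. Their sum was highest in A105 among DMSO mice and in A117 among A10i mice. The other DMSO mice had red blood cell sums of 234 to 944 CPM. A105 also had the highest cardiomyocyte and the lowest fibroblast sum of the DMSO mice. In these bulk samples fewer cells of a type and less RNA per cell cannot be told apart, and the part of cell type in the clock gene results was not tested.

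The start of a gene can be read for the elements through which the loop acts. RefSeq promoter windows of 300 bases (GRCm38.p6, from 250 bases before the start to 50 after) were at hand for 9 of the 10 clock genes, and Per2 was not among them. They were searched on both strands for the E-box CACGTG, the E-prime box CACGTT, the D-box TTATGTAA bound by DBP, TEF, HLF and NFIL3, the core AGGTCA of the element shared by ROR and NR1D proteins, and the cyclic AMP element TGACGTCA. Of 32851 windows in the mouse table, 7.15% held the E-box, 4.68% the E-prime box, 0.938% the D-box, 16.3% the AGGTCA core and 1.79% the cyclic AMP element. The stretches below carry an E-box, E-prime box or D-box and are printed because Per3, Cry2, Nr1d1 and Ciart fell in at least 1 infarcted group, as given below, while Per1 and Cry1 passed in neither. Capitals mark the match, and AACGTG is CACGTT read on the other strand.
Per1, chr11:69098763-69098808, plus strand: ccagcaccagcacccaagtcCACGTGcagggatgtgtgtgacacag
Per3, chr4:151044796-151044890, minus strand: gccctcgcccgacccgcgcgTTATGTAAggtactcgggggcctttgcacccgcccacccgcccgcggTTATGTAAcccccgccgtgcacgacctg
Cry1, chr10:85185089-85185153, minus strand: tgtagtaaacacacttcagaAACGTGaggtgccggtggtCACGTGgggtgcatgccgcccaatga
Cry2, chr2:92434210-92434255, minus strand: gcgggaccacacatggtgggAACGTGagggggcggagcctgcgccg
Nr1d1, chr11:98775380-98775425, minus strand: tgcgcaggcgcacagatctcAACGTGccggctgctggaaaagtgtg
Ciart, chr3:95882247-95882364, minus strand: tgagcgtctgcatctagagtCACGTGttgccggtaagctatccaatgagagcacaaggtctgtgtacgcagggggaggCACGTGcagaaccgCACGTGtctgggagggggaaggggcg

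The first base of each match is counted from the RefSeq transcript start of its window, with the base just before that start as -1. For Per1 that start lies inside the gene as the annotation of the counts places it. The Per1 E-box lay at -166 in the first of its windows, and the D-boxes of Per3 lay at -205 and -158. Cry1 held an E-prime box at -79 and an E-box at -60, whereas Cry2 and Nr1d1 held an E-prime box at -166 and at -28. Ciart, which encodes a repressor of the ARNTL and CLOCK dimer, had 3 E-boxes at -116, -58 and -44. Of the genes that fell, Tef and Bhlhe41 also held an E-box, at -127 and -138 in the windows of Tef and at -153 in Bhlhe41, and are not printed. Among the 10 clock genes, an AGGTCA core lay at -137 in Per1, at -77 in Nr1d2, at -119 in the third window of Clock and at 31 in the second window of Arntl. None of these letters lay in the window of Dbp. A match describes the letters only, and binding was not measured.

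Arntl, the activator of the loop (chr7:113207465-113314126 in mm10, plus strand), was the clock gene that rose most in infarcted hearts. Its level was 1.57, 1.22 and 1.77 CPM in Sham mice S1, S2 and S3, which rests on 33 to 44 counts per mouse. In DMSO mice A105, A127, A128 and A129 it was 7.75, 3.36, 15.3 and 9.64 CPM, and in A10i mice A116, A117, A119 and A120 it was 6.20, 7.22, 5.54 and 4.30 CPM. Every infarcted mouse lay above every Sham mouse, and the DMSO mice enclosed the A10i mice at both ends. Arntl was 5.90-fold higher in DMSO than in Sham mice (log2 fold change 2.56 ± 0.48 SE, edgeR quasi-likelihood test, adjusted p = 0.00351) and 3.84-fold higher in A10i than in Sham mice (1.94 ± 0.22, adjusted p = 0.000286). Its partner Clock (chr5:76209868-76304792, minus strand) moved less. Clock was 47.3, 46.8 and 46.2 CPM in Sham, 62.1, 54.2, 67.2 and 67.8 CPM in DMSO and 61.9, 72.8, 55.0 and 50.6 CPM in A10i mice. Neither infarcted group overlapped with Sham, and the rise passed the threshold of 0.01 in DMSO mice (0.42 ± 0.09, adjusted p = 0.00625) but not in A10i mice (0.37 ± 0.11, adjusted p = 0.0258).

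Dbp, a PAR bZIP activator that hands the rhythm on to output genes (chr7:45705088-45710203, plus strand), showed the opposite pattern. It was 176, 151 and 179 CPM in Sham mice, 39.3, 51.5, 17.8 and 19.4 CPM in DMSO mice and 37.6, 27.2, 55.6 and 64.3 CPM in A10i mice. Its highest infarcted value was thus less than the lowest Sham value, and the infarcted groups overlapped each other. Dbp fell by 81.2% in DMSO mice (log2 fold change -2.41 ± 0.34, adjusted p = 0.000969) and by 72.6% in A10i mice (-1.87 ± 0.26, adjusted p = 0.00111) against Sham by edgeR. The call in A10i mice was lost without A116 (-1.78, adjusted p = 0.0181). Of the 2993 exon bases of Dbp, 539 are shared with Sphk2 on the other strand. It is not stated whether the counting used strand, so how reads of the shared bases were assigned or left out is not known. Sphk2 changed by 0.06 in DMSO and by 0.23 in A10i mice on the log2 scale (adjusted p = 0.617 and 0.0497 by edgeR).

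The 2 nuclear receptors that repress Arntl were lower after MI. Nr1d1 (chr11:98767932-98775333, minus strand) was 84.0, 80.9 and 96.7 CPM in Sham, 62.0, 45.9, 22.1 and 25.2 CPM in DMSO and 37.0, 43.7, 39.4 and 42.8 CPM in A10i mice. The A10i mice lay close together, within 37.0 to 43.7 CPM, while the DMSO mice spread from 22.1 to 62.0 CPM around them. The fall passed the threshold in A10i mice (-1.09 ± 0.08, adjusted p = 6.77e-05) but not in DMSO mice (-1.18 ± 0.31, adjusted p = 0.0168 by edgeR), where the SE was larger. Without A105, the DMSO mouse with the highest Nr1d1, it was -1.51 with an adjusted p of 0.00219, whereas leaving out any other mouse gave -1.27 to -0.98 with adjusted p from 0.0254 to 0.0828. A105 also had the highest red blood cell sum and the lowest fibroblast sum of the DMSO mice, as given above. Nr1d1 shares 263 of its 3077 exon bases with Thra on the other strand, and Thra changed by -0.11 and -0.27 in the same comparisons (adjusted p = 0.485 and 0.122 by edgeR). Nr1d2 (chr14:18204054-18239127, minus strand) was 192, 191 and 203 CPM in Sham, 98.2, 131, 74.5 and 74.9 CPM in DMSO and 92.2, 108, 132 and 128.6 CPM in A10i mice. It fell by 51.8% in DMSO mice (-1.05 ± 0.18, adjusted p = 0.00238) and by 40.8% in A10i mice (-0.76 ± 0.12, adjusted p = 0.00102 by edgeR).

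The Per genes, which encode the negative arm of the loop, did not move as one. Per3 (chr4:151003652-151044665, minus strand) fell most, from 71.2, 69.0 and 83.1 CPM in Sham to 21.8, 33.7, 20.3 and 17.9 CPM in DMSO and 27.9, 28.0, 42.9 and 34.5 CPM in A10i mice. The log2 fold changes were -1.68 ± 0.19 (adjusted p = 0.000416) and -1.16 ± 0.15 (adjusted p = 0.000683 by edgeR). Per2 (chr1:91415982-91459324, minus strand) was 56.7, 53.7 and 61.2 CPM in Sham, 42.2, 44.6, 32.7 and 34.2 CPM in DMSO and 37.9, 44.8, 45.1 and 51.4 CPM in A10i mice. No infarcted mouse reached the Sham range, yet the fall passed the threshold in DMSO (-0.58 ± 0.11, adjusted p = 0.00353) and not in A10i mice (-0.35 ± 0.10, adjusted p = 0.0155 by edgeR). It passed in A10i mice without A116 (adjusted p = 0.00941) or without A120 (adjusted p = 0.00744). Per1 (chr11:69095217-69109960, plus strand), which also responds to glucocorticoids and cyclic AMP, was 97.4, 109 and 94.9 CPM in Sham, 117.3, 77.7, 73.9 and 83.6 CPM in DMSO and 61.6, 77.5, 100.5 and 86.1 CPM in A10i mice. Its groups overlapped and it passed neither test (-0.20 ± 0.15, adjusted p = 0.316, and -0.30 ± 0.14, adjusted p = 0.124 by edgeR). Without A105, whose Per1 was the highest, the DMSO value was -0.38 and passed (adjusted p = 0.00989).

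The cryptochromes, partners of the PER proteins in repression, parted from each other. Cry2 (chr2:92403646-92434043, minus strand) was 56.96, 57.9 and 58.5 CPM in Sham, 35.7, 39.0, 36.1 and 28.0 CPM in DMSO and 31.7, 39.7, 39.9 and 41.0 CPM in A10i mice. It fell by 40.4% (-0.75 ± 0.10, adjusted p = 0.000647) and 34.0% (-0.60 ± 0.09, adjusted p = 0.000777 by edgeR). Cry1 (chr10:85131700-85185064, minus strand) was 17.5, 16.6 and 18.6 CPM in Sham, 17.3, 16.2, 20.8 and 17.3 CPM in DMSO and 16.7, 16.7, 19.2 and 17.1 CPM in A10i mice. The ranges of Cry1 lay on each other. In the printed stretches Cry1 holds an E-box beside its E-prime box, and Cry2 an E-prime box without an E-box. An E-box also lay in a window of Per1, which passed in neither group. Ciart and Tef, which held E-boxes as well, were called lower in both infarcted groups, and Bhlhe41, also with an E-box, in A10i mice alone. The part of these letters in the levels was not tested. The interval of 2 SE around the log2 fold change of Cry1 ran from -0.19 to 0.23 in DMSO and from -0.18 to 0.16 in A10i mice, and the sign depended on the scaling of the libraries.

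**Figure D1:**
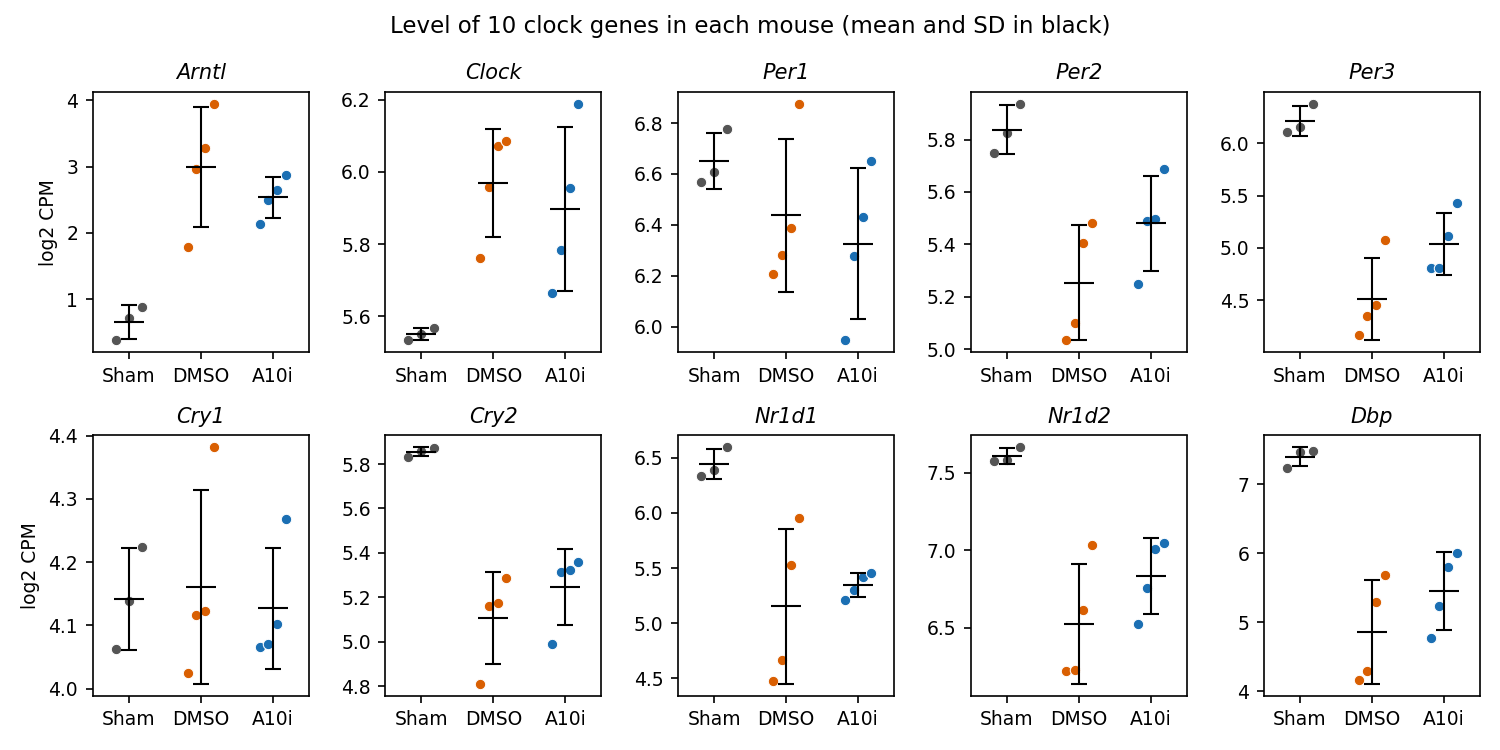
Level of each clock gene in log2 CPM (vertical axes, each panel on its own scale) in Sham, DMSO and A10i mice. Points are mice, and the black bar and whiskers are mean and SD. All infarcted mice lay above Sham for Arntl and Clock and below Sham for Per2, Per3, Cry2, Nr1d1, Nr1d2 and Dbp, whereas Per1 and Cry1 overlapped.

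Counted together, 7 of the 10 genes passed the threshold between DMSO and Sham mice, against 22.5% of all 17117 genes tested. Higher were 2 (Arntl and Clock), against 12.9% of all genes, and lower were 5 (Per2, Per3, Cry2, Nr1d2 and Dbp), against 9.60%. The groups did not overlap for 8 of the 10, against 48.4% of all genes. The median log2 fold change of the 10 was -0.67, beside 0.00 over all genes. Between A10i and Sham mice 6 of the 10 passed, against 22.9% of 16971 genes. Higher was 1 (Arntl), against 13.7%, and lower were 5 (Per3, Cry2, Nr1d1, Nr1d2 and Dbp), against 9.11%. The groups did not overlap for 8 of the 10, against 48.2%, and the median was -0.47. Both comparisons use the same 3 Sham mice, so their likeness is not a separate result. The DMSO count also leaned on the small Sham group: without S1, without S2 or without S3, 3 genes passed each time (Per3, Cry2 and Dbp). Among the DMSO mice, the Arntl call was lost without A129 (adjusted p = 0.0148), and that of Clock without A105 (adjusted p = 0.0115) or without A128 (adjusted p = 0.0113). When each mouse was left out in turn, the log2 fold change ran from 2.18 to 2.84 for Arntl and from 0.38 to 0.49 for Clock. The range was -0.66 to -0.51 for Per2 and -1.25 to -0.95 for Nr1d2. With limma-voom Arntl had an adjusted p of 0.0296.

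The comparison of A10i with DMSO mice does not use the Sham hearts, and asks whether clock gene levels after MI differed with the inhibitor. By edgeR, 0 of the 10 genes passed, in a comparison in which 0% of 16792 genes did. DESeq2, which called 1.32% of 17508 genes, and limma-voom, which called 0% of 16792, also called 0 of the 10. At an unadjusted p under 0.05 there was 1 gene, Per3, against 13.8% of all genes. Per3 was 1.43-fold higher in A10i than in DMSO mice (log2 fold change 0.52 ± 0.21, adjusted p = 0.313). The groups overlapped for all 10 genes, against 8.18% of all genes in which they did not. Dbp differed by 0.54 (2 SE interval -0.21 to 1.28) and Arntl by -0.62 (-1.38 to 0.14), so that changes of more than 2-fold remain within the interval for both. Leaving out each mouse in turn moved Arntl between -0.90 (without A127) and -0.23 (without A128) and Dbp between 0.33 (without A120) and 0.87 (without A127), and neither passed in any of these fits. The intervals were narrower for Clock (-0.30 to 0.19), Cry1 (-0.23 to 0.17) and Cry2 (-0.09 to 0.38).

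**Figure D2:**
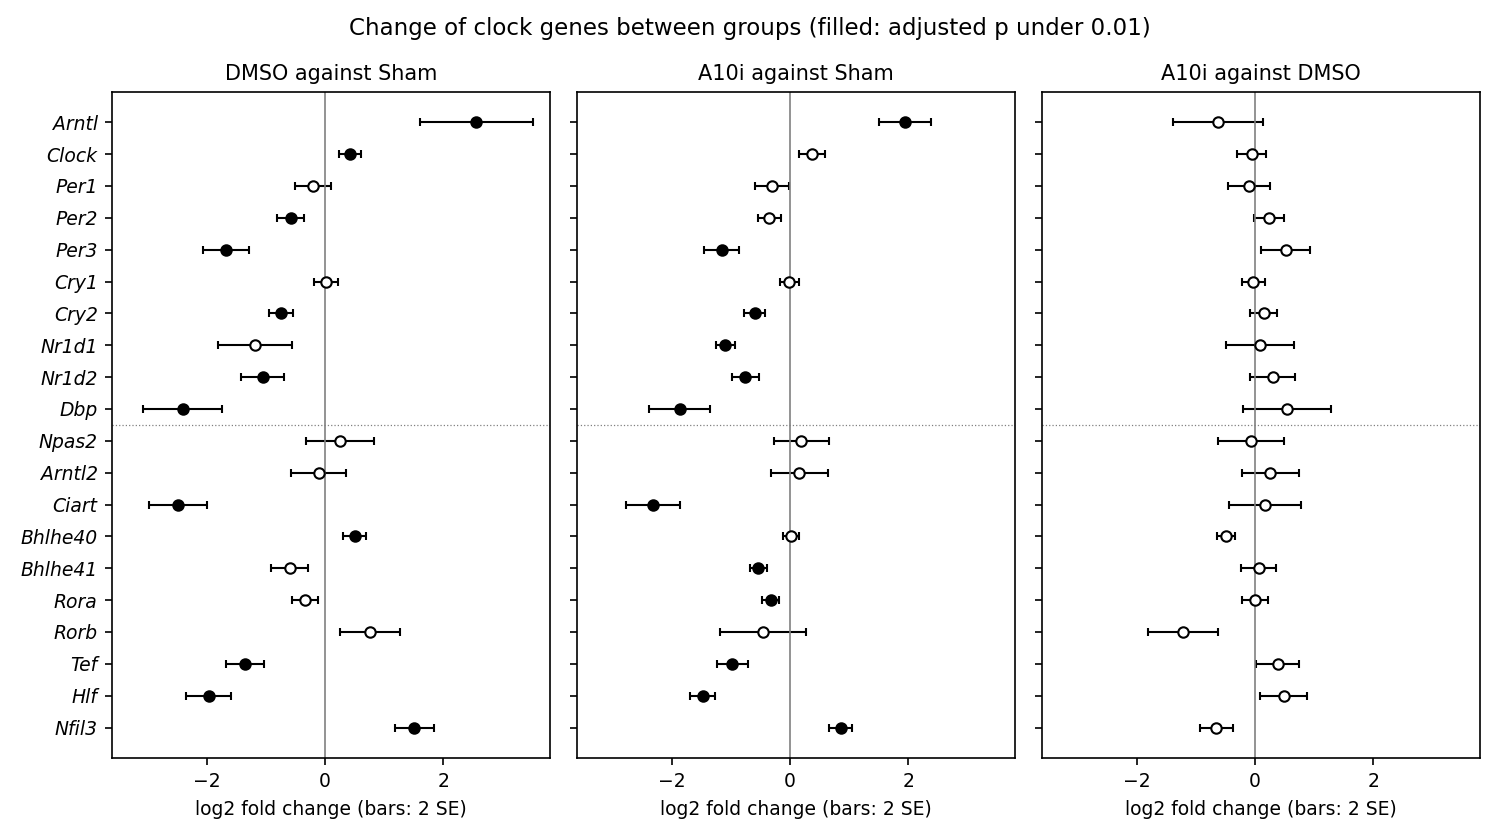
Log2 fold change of the 10 clock genes (above the dotted line) and 10 further genes of the loops (below it) in each comparison, by edgeR, with bars of 2 SE. Filled points passed an adjusted p of 0.01. Filled points appear in both comparisons with Sham, and there are none between A10i and DMSO.

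A clock index was formed per mouse as the mean log2 CPM of Nr1d1, Nr1d2, Dbp, Per2 and Per3 minus that of Arntl, Clock and Npas2, the paralogue of Clock. A scaling factor of a library cancels in it. It was 4.27, 4.14 and 4.29 in the Sham mice, 2.32, 2.81, 0.85 and 1.25 in DMSO mice A105, A127, A128 and A129, and 2.18, 1.84, 2.68 and 2.77 in A10i mice A116, A117, A119 and A120. The Sham mice lay above all others, and the A10i mice lay within the range of the DMSO mice. The mean was 4.23 ± 0.08 (SD, n = 3) in Sham, 1.81 ± 0.91 (n = 4) in DMSO and 2.37 ± 0.44 (n = 4) in A10i mice. The difference from Sham was -2.43 in DMSO and -1.87 in A10i mice, and -4.25 and -3.39 with the mean of Dbp and Nr1d1 minus Arntl in place of the index. Since the genes of the index were chosen with earlier results of these data known, it is given as a description. Mice A128 and A129 had the lowest index, the lowest Dbp and Nr1d1 and the highest Arntl of all 11 mice. They also had the lowest cardiomyocyte sums (49820 and 40292 CPM) and the highest neutrophil sums (102 and 115 CPM) of all 11.

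The 8 infarcted mice also differed among themselves, and the relation of Arntl to each of the other 9 clock genes was computed over them. After subtraction of the group means, Arntl was inversely related to Dbp (Pearson r = -0.87, exact permutation p = 0.00174, the smallest that 576 pairings within groups can give, 0.0156 after adjustment over the 9 relations computed, and Spearman rho = -0.98, exact p = 0.00347, adjusted 0.0313). Arntl was directly related to Clock (r = 0.75, exact permutation p = 0.00347, adjusted 0.0156, and rho = 0.90, exact p = 0.00694, adjusted 0.0313). With Nr1d2 (r = -0.87, exact permutation p = 0.0174, adjusted 0.043) and Per2 (r = -0.78, p = 0.0191, adjusted 0.043) the relation passed 0.05 by r but not by rho (rho = -0.81 for each, adjusted 0.082). The other 5, Per1, Per3, Cry1, Cry2 and Nr1d1, passed by neither. Without A127 and A128, the mice with the lowest and the highest Arntl of the 8, r was -0.93 for Dbp and 0.95 for Clock (exact permutation p = 0.0417 for each, where 0.0208 is the smallest possible). After adjustment 0 of the 9 relations then passed, a count that this smallest p limits. All values of a mouse come from 1 library, and the tissue was not matched for its share of infarct. In DMSO mice A127, A105, A129 and A128, by rising Arntl, the neutrophil sum was 61.3, 87.4, 115 and 102 CPM. Their cardiomyocyte sum was 54733, 60059, 40292 and 49820 CPM. In A10i mice A120, A119, A116 and A117, likewise ordered, the neutrophil sum was 24.2, 11.9, 40.5 and 23.5 CPM. Their cardiomyocyte sum was 63485, 70687, 51581 and 61166 CPM. The part of these sums in the relations was not tested.

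**Figure D3:**
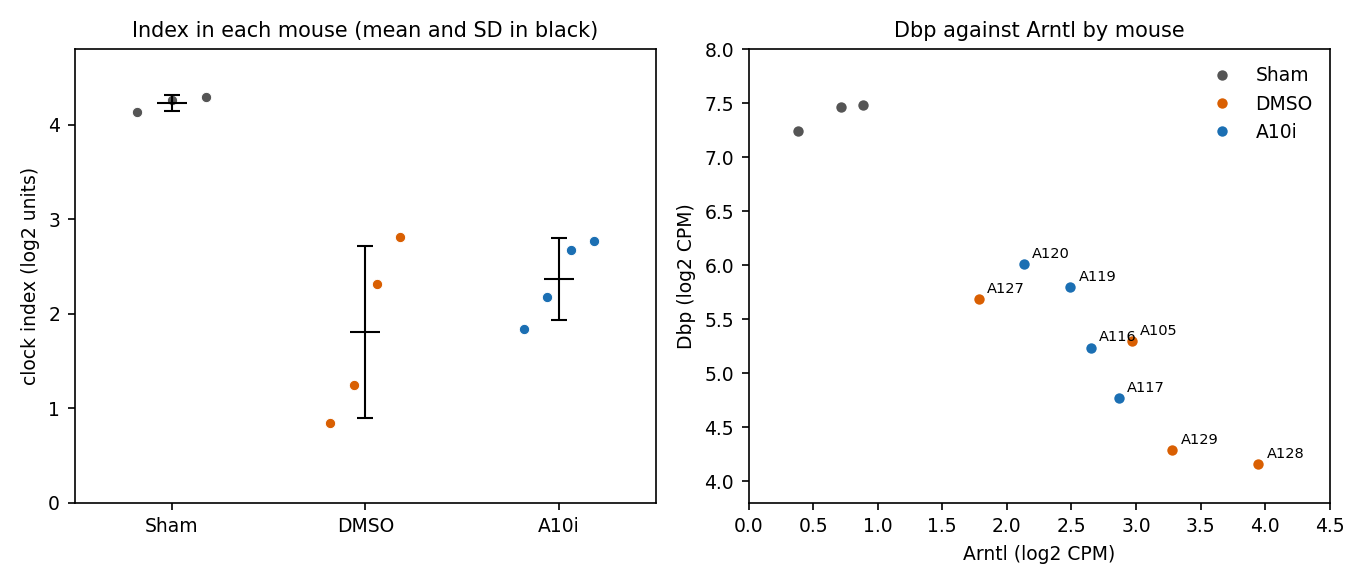
Left, the clock index in log2 units in each mouse, with mean and SD in black. Right, Dbp against Arntl in log2 CPM, with a point per mouse and infarcted mice named. Sham mice sit apart at low Arntl and high Dbp, and the infarcted mice of both groups lie along a falling line from A127 and A120 to A128.

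The spread within groups is part of the description. For Arntl the SD of log2 CPM was 0.26 over the Sham mice, 0.91 over the DMSO mice and 0.31 over the A10i mice, and for Nr1d1 it was 0.14, 0.71 and 0.11. It was larger in DMSO than in A10i mice for 9 of the 10 genes, Clock being the exception, beside 62.9% of the 16792 genes tested between these groups. It was lowest in Sham for 9 of the 10, Nr1d1 being the exception, beside 65.6% of those genes. These shares are descriptions over 3 or 4 mice a group and were not tested.

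Levels were also compared between genes per exon length, as CPM divided by the kilobases of exon (RPKM). In Sham mice Dbp led with 56.5 ± 5.18 RPKM, ahead of Nr1d2 with 36.1 ± 1.25, Nr1d1 with 28.3 ± 2.73 and Per1 with 17.9 ± 1.37. Arntl was last with 0.202 ± 0.037 RPKM, and among the neighbours in that order Per2 and Cry2 alone overlapped. In DMSO mice Nr1d2 led with 17.5 ± 4.92 RPKM, and each of the first 7 genes overlapped with the next in order. Dbp ranked 4 there with 10.7 ± 5.43 RPKM, and in A10i mice it ranked 2 with 15.4 ± 5.63 RPKM after Nr1d2 with 21.3 ± 3.47. Arntl stayed last in both, with 1.20 ± 0.66 and 0.773 ± 0.163 RPKM. In DMSO mice it overlapped with Per3, the next above it, at up to 2.04 RPKM against 1.87 or more for Per3.

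Further genes of the loops were read from a list of 10. Against Sham, 2 were higher and 3 lower in DMSO mice, beside 12.9% and 9.60% of all genes, and 1 was higher and 5 lower in A10i mice, beside 13.7% and 9.11%. Ciart fell furthest, from 17.4, 16.3 and 21.6 CPM in Sham to 5.16, 2.72, 2.25 and 3.16 CPM in DMSO and 2.45, 2.97, 5.38 and 3.98 CPM in A10i mice (log2 fold change -2.49 ± 0.25 and -2.32 ± 0.23, adjusted p = 0.000201 and 0.000273 by edgeR). Hlf and Tef, the PAR bZIP relatives of Dbp, fell by 1.97 ± 0.19 and 1.36 ± 0.16 on the log2 scale in DMSO and by 1.48 ± 0.11 and 0.98 ± 0.13 in A10i mice (adjusted p at most 0.000551 by edgeR). Nfil3, which represses through the same D-box, rose. It was 10.1, 9.02 and 11.1 CPM in Sham, 30.9, 20.7, 31.3 and 32.8 CPM in DMSO and 17.9, 17.8, 20.1 and 17.2 CPM in A10i mice (1.51 ± 0.17 and 0.86 ± 0.10, adjusted p = 0.000277 and 0.000301 by edgeR). Thus 3 D-box activators and their repressor moved in opposite directions in both infarcted groups.

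Bhlhe40 (DEC1), an E-box repressor, was higher in DMSO than in Sham mice (0.50 ± 0.09, adjusted p = 0.00296 by edgeR) and near Sham in A10i mice (0.01 ± 0.07, adjusted p = 0.901). Its relative Bhlhe41 was lower in A10i mice (-0.54 ± 0.07, adjusted p = 0.00052) and did not pass in DMSO mice (-0.60 ± 0.15, adjusted p = 0.0128 by edgeR). Of the activators of Arntl named here, Rora was lower in A10i mice (-0.33 ± 0.07, adjusted p = 0.00489) and did not pass at a like size in DMSO mice (-0.34 ± 0.11, adjusted p = 0.0343 by edgeR), and Rorb passed in neither comparison. Npas2 and Arntl2, paralogues of Clock and Arntl, passed in neither, with differences between -0.11 and 0.26. Between A10i and DMSO mice 0 of the 10 passed by edgeR, with 4 at an unadjusted p under 0.05, beside 13.8% of all genes. For 3 of the 10 these groups did not overlap, beside 8.18% of all genes: Bhlhe40 at 70.1, 71.4, 67.3 and 69.2 CPM in A10i against 107, 87.5, 96.8 and 102 CPM in DMSO mice (-0.49 ± 0.08, adjusted p = 0.0707), Nfil3 (-0.66 ± 0.14, adjusted p = 0.0977) and Rorb, which had 6 to 29 counts per infarcted mouse (-1.22 ± 0.29, adjusted p = 0.127 by edgeR).

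**Figure D4:**
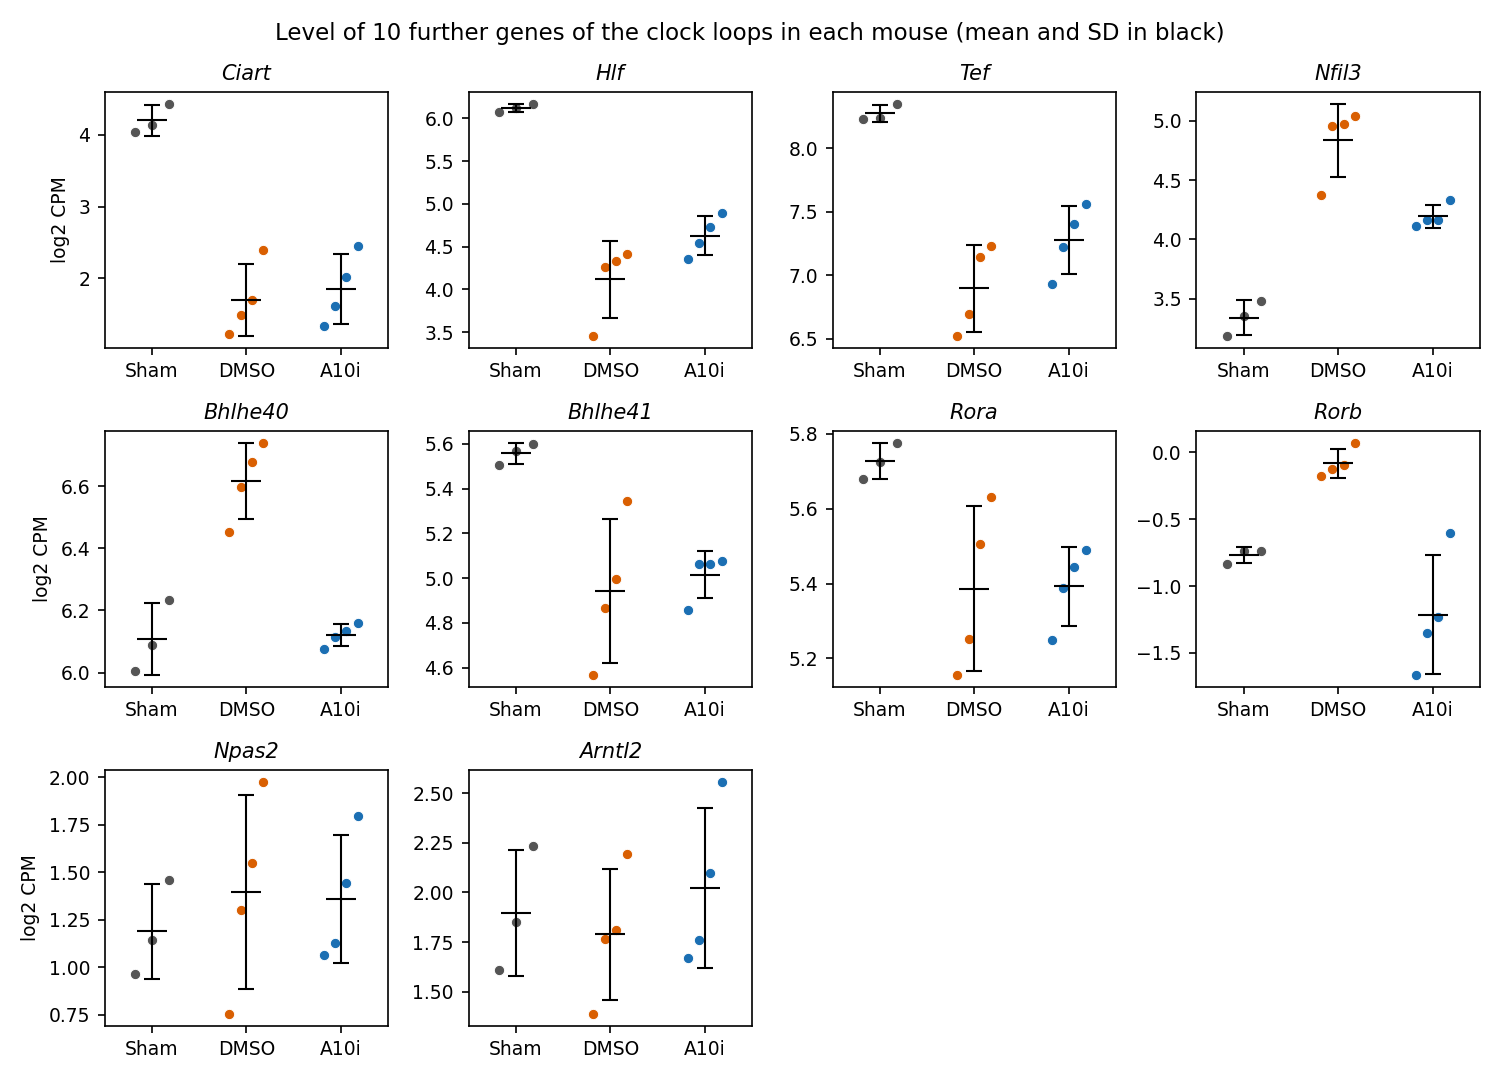
Level in log2 CPM of the 10 further loop genes in Sham, DMSO and A10i mice, with a point per mouse and mean and SD in black, each panel on its own scale. Ciart, Hlf and Tef lie below Sham and Nfil3 above Sham in all infarcted mice, and for Nfil3, Bhlhe40 and Rorb the A10i mice lie below the DMSO mice.

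Of 11 genes for the kinases, ligases and other factors that act on the clock proteins, 1 passed in each comparison with Sham, beside 22.5% of all genes in DMSO and 22.9% in A10i mice. It was Usp2, a deubiquitinase whose transcript is itself rhythmic (-0.69 ± 0.10, adjusted p = 0.000767 in DMSO and -0.52 ± 0.12, adjusted p = 0.00643 in A10i mice by edgeR). Fbxl21, a ligase subunit for cryptochromes with 3 to 34 counts per mouse, differed more but did not pass (1.70 ± 0.45, adjusted p = 0.0138 in DMSO and 0.83 ± 0.45, adjusted p = 0.17 in A10i mice by edgeR). Fbxl21 was named after its values were seen. Of 14 genes known as outputs of the clock in heart or other tissues, with Usp2 again among them, 4 were higher and 4 lower in DMSO mice, and 2 were higher and 7 lower in A10i mice. For this and the following lists the shares of all genes were 12.9% higher and 9.60% lower in DMSO and 13.7% and 9.11% in A10i mice. Tcap, a sarcomere protein, fell by 1.75 ± 0.13 and 1.31 ± 0.23, and the potassium channel gene Kcnh2 by 0.98 ± 0.11 and 0.68 ± 0.16, on the log2 scale. Kcnip2, a potassium channel subunit, had the smallest p of the list in A10i mice (-1.10 ± 0.17, adjusted p = 0.00144 by edgeR). At a like size it did not pass in DMSO mice (-1.05 ± 0.32, adjusted p = 0.0271 by edgeR). Pdk4, which restrains glucose oxidation, rose by 2.82 ± 0.21 and 2.29 ± 0.48 (adjusted p at most 0.00877 for Tcap, Kcnh2 and Pdk4 by edgeR). The median of the list was -0.24 in DMSO and -0.40 in A10i mice. That of the 8 cardiomyocyte marker genes was -0.67 and -0.43, and the part of cell type in the output genes was not tested. Glucocorticoids can reset peripheral clocks. Of 9 genes they induce, 6 were called higher and 1 lower in DMSO mice, and 4 were called higher and 1 lower in A10i mice. The lower gene was Klf9, a zinc finger factor, in DMSO mice (-0.65 ± 0.11, adjusted p = 0.00182) and Zbtb16, another, in A10i mice (-0.66 ± 0.14, adjusted p = 0.00493 by edgeR). Klf9 in A10i mice (-0.54 ± 0.14, adjusted p = 0.0134) and Zbtb16 in DMSO mice (-0.47 ± 0.12, adjusted p = 0.0148 by edgeR) did not pass, and both genes were named after their values were seen. By sign alone, 6 of the 9 were higher and 3 lower in each of these comparisons. Tsc22d3, likewise named after its values were seen, was lower but did not pass (-0.37 ± 0.10, adjusted p = 0.014 in DMSO and -0.09 ± 0.12, adjusted p = 0.553 in A10i mice by edgeR). The cell cycle inhibitor gene Cdkn1a rose by 2.26 ± 0.23 and 1.66 ± 0.17, and Mt1, a metallothionein, by 1.30 ± 0.14 and 0.97 ± 0.19 (adjusted p at most 0.00439 by edgeR). Mt2, also a metallothionein, rose by 3.09 ± 0.21 and 2.26 ± 0.36 (adjusted p = 4.4e-05 and 0.00227 by edgeR), whereas Fkbp5 passed in DMSO mice (0.68 ± 0.09, adjusted p = 0.000673) and not in A10i mice (0.56 ± 0.19, adjusted p = 0.0458). Of 9 immediate early genes, 8 were higher in DMSO and 7 in A10i mice. Junb, a subunit of the AP-1 transcription factor, rose by 2.41 ± 0.12 and 1.80 ± 0.17 (adjusted p = 1.07e-05 and 0.000233 by edgeR). Between A10i and DMSO mice 0 genes of these 4 lists passed by edgeR, with 2 of 11, 2 of 14, 3 of 9 and 5 of 9 at an unadjusted p under 0.05, beside 13.8% of all genes. The part of these signals in the clock gene levels was not tested.

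Genes whose pattern was most like that of Arntl or Dbp were sought among 17357 others by Pearson r of log2 CPM after subtraction of the group means, over the 11 mice, as a description. The highest for Arntl were Ece1 (r = 0.97), Qars, Depdc5, Cldn5 and Hes1, and the lowest were Tnfaip8 (-0.97), Ppp1r11, Gm16793, Chn2 and Orc5. For Dbp the highest were Gm26862 (0.98), Mhrt, Pigo, Mrpl48 and Pcbp2, and the lowest were Mast4 (-0.96), Slc35g2, Smg6, Gm2399 and Carmil1. Several clock genes lay near an end of these orders and others far from both. For Dbp, Nr1d2 ranked 51 (0.88), Per2 167 (0.82), Per3 184 (0.81), Nr1d1 599, Cry2 1790 and Per1 2721 from the highest. Clock ranked 9 (-0.90), Arntl 92 (-0.82) and Cry1 4186 from the lowest for Dbp. For Arntl, Clock ranked 291 (0.73) and Cry1 456 (0.68) from the highest. Nr1d2 ranked 59 (-0.83), Dbp 74 (-0.82), Per3 346 (-0.69), Per2 362 (-0.69), Nr1d1 887, Cry2 2573 and Per1 5348 from the lowest for Arntl. Of the loop genes, Tef ranked 90 from the highest for Dbp (0.85) and 420 from the lowest for Arntl, and Nfil3 ranked 82 from the highest for Arntl (0.82). All points share libraries and depth, and no p is given.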

How the data were processed

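Poly(A) RNA libraries, made with a strand-specific kit, were sequenced in pairs. Per the submitters' processing notes, the tools included bcl2fastq 2.20.0, GSNAP 2020-12-16 and featureCounts 2.0.1, with mm10 and, per the file header, Ensembl 98. The authors deposited raw counts per gene without normalization. The strand setting of the counting is not given in the sources used here. Here, 92 spike-in rows were left out and 55154 of 55421 gene identifiers were named with GENCODE M21. Each pair of groups was fitted on its own libraries with edgeR 4.0.16 (R 4.3.3; filterByExpr, TMM, robust quasi-likelihood F-test, two-sided, Benjamini-Hochberg adjustment over all genes tested, threshold 0.01). SE is the log2 fold change divided by the root of F. Levels are TMM-scaled CPM over 11 libraries, with a prior count of 2 on the log2 scale. All 10 clock genes and 10 loop genes were named, 1 more loop gene is not reported here, and of other lists genes among the 4 with the smallest p in a comparison, besides Klf9 and Zbtb16. Motifs were exact matches. Members and lists were chosen with earlier results of these data known. Mice count as replicates. Alternatives were DESeq2 1.42.0, limma-voom (limma 3.58.1), other scalings, filters, thresholds, a joint fit and leaving out each mouse. On simulated counts of the A10i and DMSO comparison edgeR called 93 of 98 genes changed 4-fold, 60 of 102 changed 2-fold and 0 others of 16792. These counts were drawn for each gene on its own, without variation that the genes of a mouse share. They therefore do not measure the power in these hearts. In the real comparison Atf3, 4.24-fold lower in A10i than in DMSO mice, did not pass (adjusted p = 0.048 by edgeR).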

Additional observations from a re-analysis of the deposited data

Results flagged for a closer look

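Of 42 groups of 4 mice examined over the 10 clock genes, 10 further loop genes and the clock index, 4 held a mouse far from its others by Dixon's criterion (the gap to the nearest mouse over the whole range), where chance gives about 1 in 20. Cry2 was 4.99 log2 CPM in A10i mouse A116, below 5.31 to 5.36 in the other A10i mice. Bhlhe41 was 4.86 log2 CPM in A10i mouse A117, below 5.06 to 5.08. Hlf was 3.46 log2 CPM in DMSO mouse A129, below 4.27 to 4.41. Nfil3 was 4.38 log2 CPM in DMSO mouse A127, below 4.96 to 5.04.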

How the results depend on the processing

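The number of the 10 clock genes called between DMSO and Sham mice was 7 and lay between 3 and 8 when each mouse was left out in turn, at 3 without any of the Sham mice and between 6 and 8 without any of the DMSO mice. Under the other alternatives it was 5 to 8. Between A10i and Sham mice it was 5 to 8, and between A10i and DMSO mice 0 throughout. Counting single genes, 123 of 150 alternative values kept direction and call for DMSO against Sham, 135 of 150 for A10i against Sham and 154 of 160 for A10i against DMSO. Changes of sign concerned uncalled values. Cry1 was -0.0079 with upper-quartile factors in DMSO against Sham and 0.18 with library size alone in A10i against Sham. Library size alone puts the median of all genes at 0.21 in DMSO and 0.18 in A10i against Sham. Leaving out mice, the Cry1 range was -0.060 to 0.065 in DMSO and -0.056 to 0.030 in A10i against Sham. In A10i against DMSO the ranges were -0.078 to 0.050 for Cry1, -0.22 to 0.063 for Per1, -0.11 to 0.40 for Nr1d1 and -0.16 to 0.016 for Clock. The clock index from Dbp and Nr1d1 minus Arntl alone differed from Sham by -4.25 in DMSO and -3.39 in A10i mice, in place of -2.43 and -1.87. Of the relations to Arntl, 4 passed by r, and 0 without the 2 mice farthest from its median, where the fewer mice limit p to 0.0208 and r was -0.93 for Dbp, 0.95 for Clock and -0.22 for Cry1. In the other cases the cause was not tested. Arntl had the fewest counts of the 10 clock genes, with 33 to 44 per Sham mouse. No paired analysis was possible because the labels give the groups no shared replicate numbers.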
